A study of Danio rerio with 2 samples.

Results

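Coarse cluster 8 is 1 of 8 coarse groups into which the authors sorted single cells of zebrafish (Danio rerio) tails. Its members were all rows of the deposited per-cell table with the coarse cluster number 8, and they numbered 499 of 10469 cells. The authors' finer clustering divides it into fine cluster 5, with 444 cells, and fine cluster 12, with 55 cells. No cell of either fine cluster lay in another coarse cluster. The tables pair no number with a cell type name and hold no gene expression, so both groups are called by number, and the identity of the cells could not be checked against marker genes.

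The cells came from tails of embryos at 20 hours post fertilisation (hpf), about 150 embryos for each library. They had been sorted for the green fluorescence of an npas4l reporter, with a dye (DAPI) as the sign of dead cells. The heterozygous library (genotype npas4lbns423/+) gave 195 cells of cluster 8, 173 of them in fine cluster 5 and the other 22 in fine cluster 12. The mutant library (npas4lbns423/bns297, so that the bns423 allele is present in both groups) gave 304, of which 271 were in fine cluster 5 and 33 in fine cluster 12. There was 1 library per genotype and each pools embryos, so no test between genotypes was possible, and every interval below is an exact 95% interval that covers counting error over cells only. Cells of a library are not replicates. A difference is called here where the 2 intervals lie apart. Between the libraries, a call or its absence describes the cells of these 2 libraries and is no test of genotype.

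Npas4l (also called Cloche) is a transcription factor at the top of the programme by which mesoderm forms endothelial and blood cells in zebrafish, and embryos without it lack most of both. A reporter of the gene marks cells that switched it on, whatever they become afterwards. RNA velocity orders such cells by comparing unspliced, newly made transcripts with spliced ones. It gives each cell a pseudotime from early to late, a root cell score and an end point score for how much it resembles a start or a final state, and a self-transition score for its tendency to stay where it is. All these scores are computed from one set of expression values, as the clusters are, so they are described here and not tested, and relations among them are not independent observations.

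The description of cluster 8 as the late cluster held for fine cluster 5 and not in the same way for fine cluster 12. In fine cluster 5, velocity pseudotime had a median of 0.872 (0.853 to 0.885) in heterozygous cells, with a lowest value of 0.565 and a highest of 0.999. In mutant cells the median was 0.852 (0.839 to 0.870), with a lowest value of 0.461 and a highest of 1. In fine cluster 12 the heterozygous median was 0.617 (0.583 to 0.738), from 0.333 to 0.845. The mutant median was 0.605 (0.587 to 0.617), from 0.565 to 0.794. Fine cluster 12 thus lay 0.255 lower than fine cluster 5 in the heterozygous library (bounds of the difference -0.302 and -0.115) and 0.247 lower in the mutant library (-0.283 and -0.222). None of its cells lay above the median of fine cluster 5 of the same library. The groups still overlapped, since 1 heterozygous and 9 mutant cells of fine cluster 5 lay below the median of fine cluster 12. Within either fine cluster the difference between the libraries was not called. Mutant minus heterozygous medians were -0.0196 (-0.0453 to 0.0167) for fine cluster 5 and -0.0119 (-0.151 to 0.0344) for fine cluster 12.

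**Figure D1:**
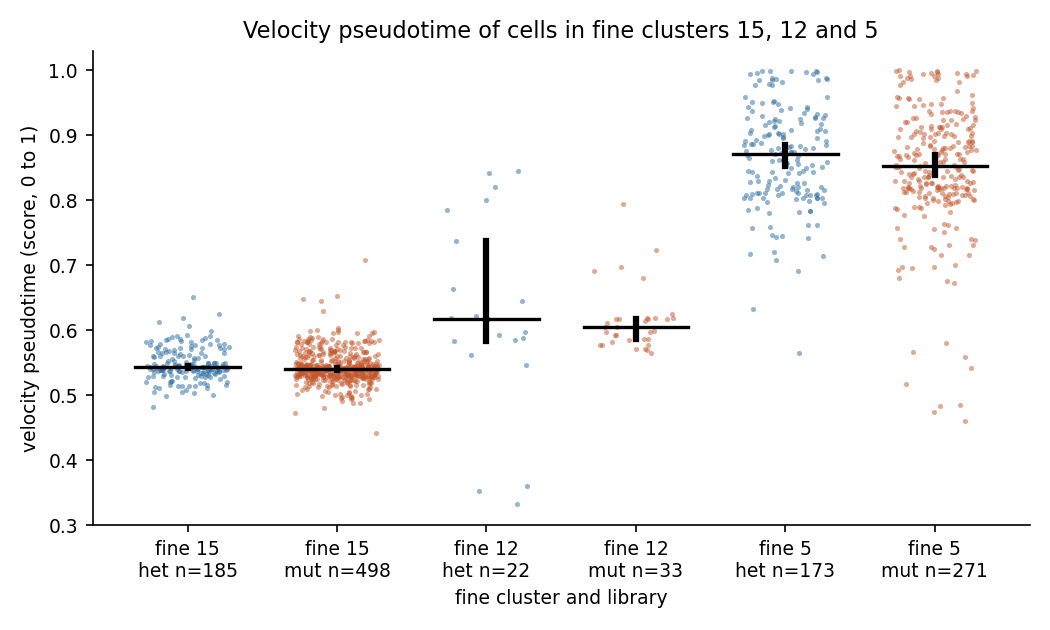
Velocity pseudotime (score from 0 to 1) of every cell of fine clusters 15, 12 and 5 in each library; points are cells, horizontal bars medians and thick vertical bars their exact 95% intervals. Fine cluster 12, with medians of 0.617 and 0.605, lies between fine cluster 15 and fine cluster 5.

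Together the 2 groups occupied nearly the whole upper end of the ordering. All 374 cells with a pseudotime of 0.8 or more belonged to cluster 8, namely 371 of fine cluster 5 and 3 of fine cluster 12. At 0.7 or more they were 433 of 434 cells, and at 0.6 or more 463 of 476. The 13 others were all from fine cluster 15, whose highest value was 0.708. Fine cluster 15 was therefore the neighbour of cluster 8 in pseudotime, with a heterozygous median of 0.544 and a mutant one of 0.540.

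Fine cluster 12 occupied a narrow stretch of pseudotime in the mutant library. Of its mutant cells, 28 of 33 or 84.8% (68.1% to 94.9%) lay from 0.55 to 0.65. Of its heterozygous cells, 11 of 22 or 50.0% (28.2% to 71.8%) did. These intervals overlap, so the difference between the libraries was not called. This window, chosen after seeing the values, held 236 cells in all, of which 192 were from fine cluster 15 and 5 from fine cluster 5. At this shared position fine clusters 12 and 15 differed in their other scores. Self-transition had a median of 0.603 (0.551 to 0.645) in the 11 heterozygous cells of fine cluster 12 and 0.419 (0.396 to 0.477) in 59 heterozygous cells of fine cluster 15. In the mutant library it was 0.580 (0.565 to 0.604) in 28 cells and 0.412 (0.398 to 0.436) in 133 cells. The root cell score had the opposite order, with medians of 0.00414 in fine cluster 12 in both libraries and of 0.143 and 0.132 in fine cluster 15. However, the window held 0 of the 9 heterozygous cells of fine cluster 12 with root cell scores of 0.5 or more (below). Over all heterozygous cells the median root cell score was 0.0508 (0.00414 to 0.719) in fine cluster 12 and 0.103 in fine cluster 15. Over all mutant cells these medians were 0.00421 and 0.0635. The root cell score of 0.00414 recurred exactly in cells of both libraries, so the equal medians in the window are not independent measurements. In fine cluster 12, 3 of 55 cells were identical in pseudotime, self-transition, end point score and root cell score. This held for 0 of 444 cells of fine cluster 5 and 0 of 9970 outside cluster 8.

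End point scores were confined to fine cluster 5 among the cells of cluster 8 when counted at 0.9 or more. There, 66 of 173 heterozygous cells or 38.2% (30.9% to 45.8%) and 78 of 271 mutant cells or 28.8% (23.5% to 34.6%) reached that score. Fine cluster 12 had 0 of 22 heterozygous cells, which allows a share of up to 13.6%, and 0 of 33 mutant cells, which allows up to 9.09%. The shares of fine cluster 5 lay above these limits in both libraries. Its mutant share was 9.37 percentage points below the heterozygous one (mutant minus heterozygous -9.37, -22.4 to 3.69), a difference that was not called. With a threshold of 0.95 in place of 0.9 the difference was -12.8 (-25.5 to -0.0322) and was called, with a bound next to 0.

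Within fine cluster 5 the end point score was mostly near 0 or at 1. It was exactly 1 in 60 heterozygous cells, 34.7% (27.6% to 42.3%), and in 62 mutant cells, 22.9% (18.0% to 28.3%). It was under 0.1 in 57 heterozygous cells, 32.9% (26.0% to 40.5%), and in 108 mutant cells, 39.9% (34.0% to 46.0%). The median rose over the same parts of pseudotime in both libraries, with limits chosen after seeing the data. Between pseudotimes of 0.80 and 0.85 heterozygous cells had a median end point score of 0.0228 and mutant cells one of 0.0462. Between 0.85 and 0.90 it was 0.579 (0.427 to 0.796) and 0.598 (0.506 to 0.701), and from 0.90 on it was 1 in both. The only cells of fine cluster 12 with a score of 0.1 or more were 3 heterozygous ones, the highest at 0.569, and all 33 mutant cells were under 0.1. Outside cluster 8, the other 100 cells at 0.9 or more were all in fine cluster 2, at a median pseudotime of 0.439 over that whole cluster, so a high end point score alone did not mark the late cells. Of the cells with such a score, fine cluster 5 held 66 of 84 in the heterozygous library and 78 of 160 in the mutant one.

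**Figure D2:**
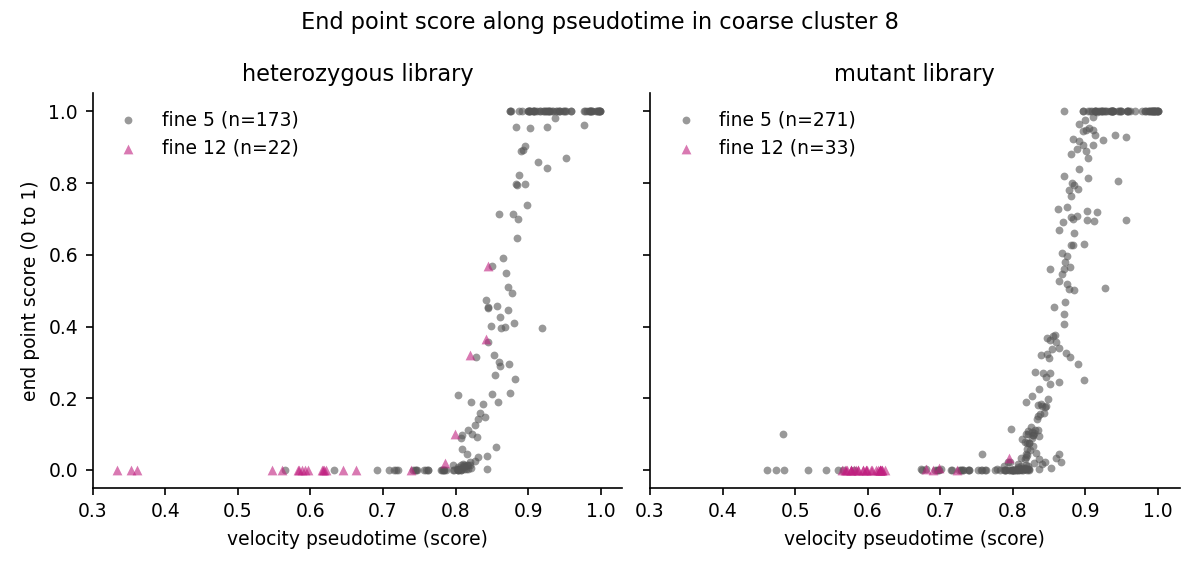
End point score (0 to 1) against velocity pseudotime (score) for every cell of coarse cluster 8, heterozygous library left and mutant library right; circles are fine cluster 5 and triangles fine cluster 12. The score rises between pseudotimes of 0.80 and 0.90 in both libraries, and no triangle reaches 0.9.

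Median self-transition was higher in fine cluster 12 than in any other fine cluster. Its median over both libraries was 0.566 (0.531 to 0.586), the highest of 15, and fine cluster 13 followed at 0.471 (0.466 to 0.475). Fine cluster 5 had a median of 0.409. In the mutant library the median was 0.576 (0.543 to 0.604) in fine cluster 12 and 0.402 (0.392 to 0.411) in fine cluster 5, a difference of 0.174 (0.132 to 0.212). In the heterozygous library the values were 0.522 (0.391 to 0.603) and 0.420 (0.407 to 0.437), and the difference of 0.102 (-0.0451 to 0.196) was not called. The heterozygous median of fine cluster 13, 0.479, also lay inside the interval of fine cluster 12 there. Its mutant median, 0.468, lay below that of fine cluster 12. A maximum of 29462 UMIs for both libraries was also used, chosen after seeing the data. With it the heterozygous difference between fine clusters 12 and 5 was 0.163 (0.0766 to 0.203) and was called, on 12 cells of fine cluster 12. Of the heterozygous cells of fine cluster 12 above that maximum, 9 had root cell scores of 0.5 or more (below) and a median self-transition of 0.391. The call therefore depends on the cells that the limit left out. A self-transition of 0.5 or more was found in 12 of 22 heterozygous and 28 of 33 mutant cells of fine cluster 12. In fine cluster 5 it was found in 36 of 173 and 41 of 271. By whole-cluster median, the highest self-transition was thus not in fine clusters 5 or 2, which held all end point scores of 0.9 or more. Fine cluster 2, with 100 of the 244 such cells, had the lowest median self-transition of the 15, at 0.143. With all cells taken, the difference between fine clusters 12 and 5 was called in the mutant library only. Within fine cluster 5, cells from a pseudotime of 0.95 on had a median end point score of 1 in both libraries. Their median self-transition was 0.543 in heterozygous and 0.5499 in mutant cells, near the medians of fine cluster 12 (below).

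**Figure D3:**
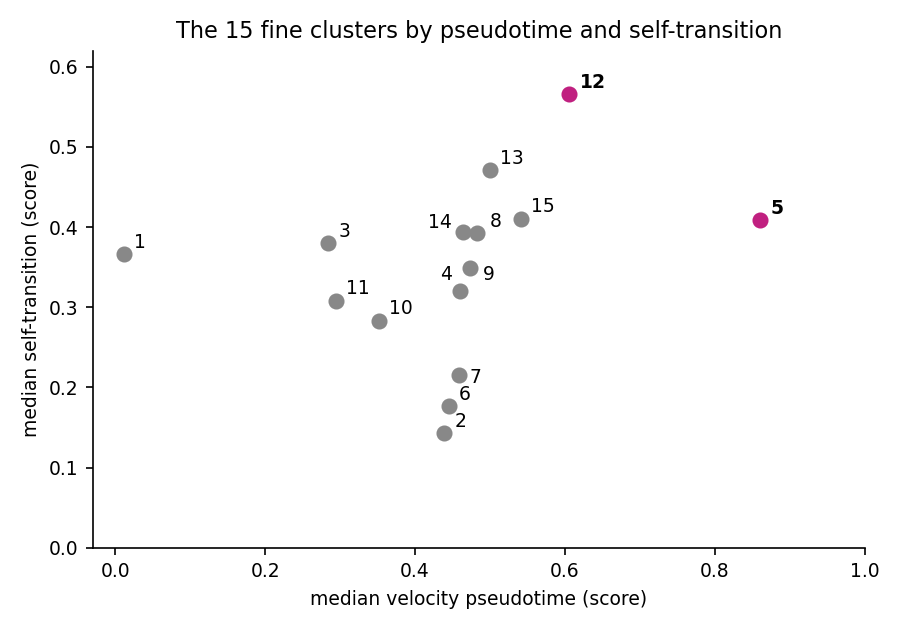
Median self-transition (score) against median velocity pseudotime (score) of the 15 fine clusters, each point a cluster over both libraries with its number; fine clusters 5 and 12 are coloured. Fine cluster 12 is highest in self-transition at 0.566 and fine cluster 5 is latest in pseudotime at 0.861.

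The heterozygous cells of fine cluster 12 included sets with high root cell scores that its mutant cells largely lacked. A root cell score of 0.5 or more, a threshold chosen after seeing the values, was given to 9 of 22 heterozygous cells, 40.9% (20.7% to 63.6%), and to 1 of 33 mutant cells, 3.03% (0.0767% to 15.8%). No cell of fine cluster 5 had such a score. Such scores also occurred elsewhere, most often in fine cluster 9, in all 10 heterozygous and 79.8% of 163 mutant cells. In fine cluster 4, 34.8% of 46 heterozygous and 13.5% of 437 mutant cells had one. In fine cluster 15, 11.4% of 185 heterozygous and 8.63% of 498 mutant cells did. Of the 9 heterozygous cells of fine cluster 12, 4 had a root cell score of exactly 1 and lay at pseudotimes from 0.333 to 0.547. The other 5 had root cell scores from 0.717 to 0.725 and lay from 0.785 to 0.845, the late end of fine cluster 12. The remaining 13 heterozygous cells had a median pseudotime of 0.616 and a median self-transition of 0.586. The 32 remaining mutant cells had 0.605 and 0.578. The share of root cell scores of 0.5 or more, mutant minus heterozygous, was -37.9 percentage points (-63.6 to -4.95). At or below 1.64% mitochondrial UMIs it was -40.7 (-71.0 to 7.50), on 15 mutant and 19 heterozygous cells, and was not called.

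Cells with root cell scores of 0.5 or more also differed from the others in depth, counted as UMIs (unique molecular identifiers, 1 per captured transcript). The 9 heterozygous cells had from 31807 to 56623 UMIs, with a median of 40222. The 13 others had from 12690 to 30639, with a median of 20744, so the sets did not overlap. The 1 mutant cell had 48963 UMIs, and the 32 other mutant cells had at most 27730. Outside cluster 8, at least 30000 UMIs were found in 978 heterozygous cells (19.5%) and 230 mutant cells (4.64%). Fine cluster 1, with 3060 heterozygous and 147 mutant cells in all, held 929 of those 978 cells. There 30.4% of heterozygous and 9.52% of mutant cells were this deep. In fine cluster 5 the order was the other way, with overlapping intervals. There it was 2.31% (0.633% to 5.81%) of heterozygous and 5.90% (3.41% to 9.41%) of mutant cells. The common maximum of 29462 UMIs lay below the depth of all 9 heterozygous cells and of the 1 mutant cell. Up to this limit, 0 of 12 heterozygous and 0 of 32 mutant cells of fine cluster 12 reached the threshold of 0.5. These counts follow from where the limit lies and are no separate observation. Depth and root cell score also moved together in fine cluster 5, at lower scores. Its 4 heterozygous and 16 mutant cells with at least 30000 UMIs had median root cell scores of 0.119 and 0.0942, with none above 0.377, against 0.00147 and 0.00192 in its other cells. Across its cells, Spearman's rho between root cell score and UMIs was 0.387 for heterozygous and 0.5003 for mutant cells, as a description. In fine cluster 12 this rho was 0.732 for heterozygous and -0.207 for mutant cells. High scores and depth did not go together in every fine cluster. In fine cluster 9, 80.9% of 173 cells had a root cell score of 0.5 or more, and 4.05% had at least 30000 UMIs. The 9 heterozygous cells of fine cluster 12 with such scores had a median of 7.42% unspliced UMIs and 0.937% mitochondrial UMIs. In its 13 other heterozygous cells these were 11.5% and 1.50%. How droplets with more than 1 cell were treated is not given in the sources used here, and their part in these values was not tested.

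**Figure D4:**
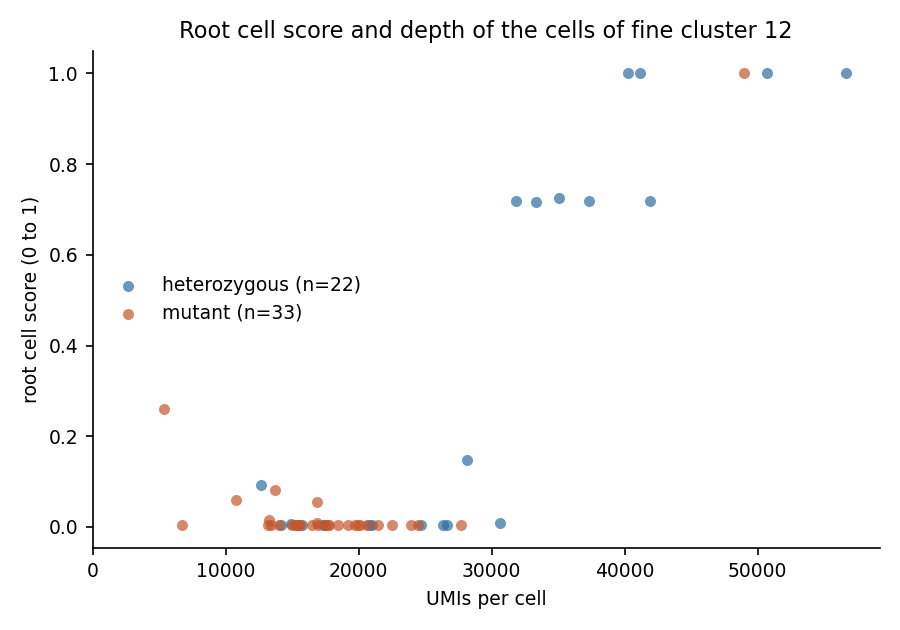
Root cell score (0 to 1) against UMIs per cell for the 55 cells of fine cluster 12, heterozygous cells in blue and mutant cells in orange. All 10 cells with a score of 0.5 or more have over 30000 UMIs, and 9 of them are heterozygous.

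Over all cells, fine cluster 12 was deeper than fine cluster 5 in both libraries. The heterozygous medians were 27376 UMIs (17492 to 37330) and 13878 (13002 to 14359), a ratio of 1.97 (1.22 to 2.87). The mutant medians were 16869 (15306 to 19173) and 13964 (13284 to 14635), a ratio of 1.21 (1.05 to 1.44). Between genotypes, fine cluster 5 had a ratio of mutant to heterozygous UMIs of 1.01 (0.925 to 1.13), and fine cluster 12 one of 0.616 (0.410 to 1.10). Genes per cell had medians of 4138 (3387 to 4912) in fine cluster 12 and 3099 (2973 to 3187) in fine cluster 5 of the heterozygous library. This was a ratio of 1.34 (1.06 to 1.65). The mutant library had 3335 (3157 to 3514) and 3158 (3018 to 3241), and its ratio of 1.06 (0.974 to 1.16) was not called. In cells from 11358 to 17778 UMIs, the middle of cluster 8, the medians came together at 3334 genes in 6 cells and 3160 in 93 heterozygous cells, and at 3220 in 18 cells and 3183 in 132 mutant cells.

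Splicing did not separate the 2 fine clusters. Unspliced UMIs made up 11.4% (10.9% to 11.98%) of spliced plus unspliced UMIs in heterozygous and 10.5% (10.1% to 11.0%) in mutant cells of fine cluster 5. In fine cluster 12 they made up 10.4% (7.69% to 12.5%) and 9.94% (9.45% to 10.8%). The difference of fine cluster 12 minus fine cluster 5 was -0.998 percentage points (-4.29 to 1.66) in the heterozygous and -0.537 (-1.55 to 0.785) in the mutant library. Mutant minus heterozygous medians were -0.937 percentage points (-1.92 to 0.142) for fine cluster 5 and -0.477 (-3.06 to 3.16) for fine cluster 12, and neither difference was called. Fine cluster 5 had the highest median percent of unspliced UMIs in each library, among the 12 fine clusters that had 20 cells or more there. The next, fine cluster 13, had 11.0% (10.6% to 11.5%) and 10.3% (10.0% to 10.6%), with intervals that overlap those of fine cluster 5. A few cells had hardly any unspliced transcripts, under 2%. They were 10 of 444 in fine cluster 5, 2.25% (1.09% to 4.10%), 1 of 55 in fine cluster 12, and 1.05% (0.862% to 1.27%) of the cells outside cluster 8.

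Fine cluster 5 itself changed along pseudotime, and mostly alike in both libraries. Its cells were divided at pseudotimes of 0.80, 0.85, 0.90 and 0.95, limits chosen after seeing the data that leave at least 24 cells of each library in every part. Self-transition was lowest before 0.80, at a median of 0.331 (0.314 to 0.352) for heterozygous and 0.337 (0.321 to 0.355) for mutant cells. It was highest from 0.95 on, at 0.543 (0.511 to 0.574) and 0.5499 (0.531 to 0.577). The latest cells of fine cluster 5 thus had a self-transition near the medians of fine cluster 12, 0.522 in heterozygous and 0.576 in mutant cells. UMIs went the other way, from 15811 (13887 to 22346) to 11696 (10404 to 14164) in heterozygous cells, whose intervals overlap, and from 18528 (16358 to 20542) to 10598 (9143 to 12651) in mutant cells. Across cells, Spearman's rho between pseudotime and UMIs was -0.322 over 173 heterozygous and -0.395 over 271 mutant cells, as a description of cells that share a library. Depth therefore moved with pseudotime inside fine cluster 5, and its part in the ordering was not tested.

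The percent of unspliced UMIs was highest in the last part in both libraries. It was 12.5% (11.8% to 14.4%) in heterozygous and 12.6% (11.8% to 14.4%) in mutant cells from 0.95 on, against 11.3% (9.25% to 13.0%) and 10.2% (9.37% to 11.3%) before 0.80. The intervals of first and last part lay apart in the mutant library only, and the difference between the libraries in this respect was not tested. Across all cells of fine cluster 5 the libraries had the other order. Spearman's rho between pseudotime and unspliced percent was 0.253 for heterozygous and 0.0789 for mutant cells, as a description. The libraries were furthest from each other from 0.90 to 0.95, at 11.96% (10.6% to 12.9%) and 9.58% (8.13% to 10.9%), with overlapping intervals.

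Mitochondrial UMIs, a common measure of cell state and handling, were higher in mutant cells of both fine clusters, and not in these alone. The mutant median was higher in all 7 other fine clusters with 20 or more cells of each genotype, by 0.264 to 0.685 percentage points, with intervals apart in 5 of the 7. In fine cluster 5 the medians were 1.83% (1.73% to 1.97%) in mutant and 1.44% (1.34% to 1.56%) in heterozygous cells, a difference of 0.398 percentage points (0.163 to 0.638). In fine cluster 12 they were 1.76% (1.58% to 2.25%) and 1.16% (0.937% to 1.51%), a difference of 0.602 (0.0722 to 1.31). With the same maximum of 29462 UMIs in both libraries, the difference in fine cluster 12 was 0.389 (-0.110 to 1.22) and was not called. Along fine cluster 5 the order of the libraries held up to a pseudotime of 0.95 and not beyond it. The mutant medians were 2.002%, 1.99%, 1.84% and 1.82% in the first 4 parts, against 1.59%, 1.46%, 1.39% and 1.40% in heterozygous cells. From 0.95 on they were 1.27% (1.06% to 1.57%) in 31 mutant and 1.32% (1.05% to 1.73%) in 25 heterozygous cells. The intervals of the libraries lay apart only between 0.80 and 0.85.

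**Figure D5:**
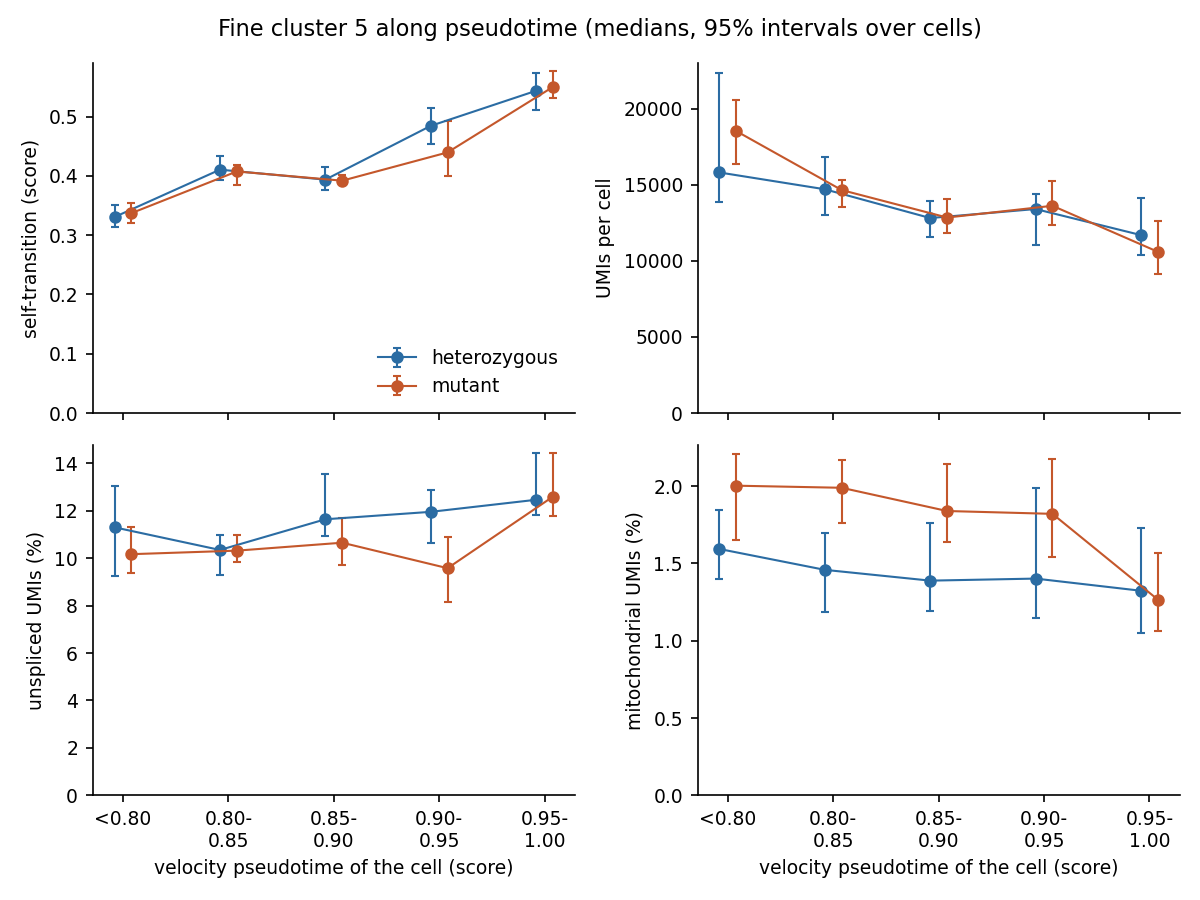
Median self-transition (score), UMIs per cell, unspliced UMIs (%) and mitochondrial UMIs (%) of fine cluster 5 in 5 parts of velocity pseudotime (score); bars are exact 95% intervals over cells, blue is the heterozygous and orange the mutant library. Self-transition is highest and UMIs are lowest in the last part in both libraries, and the mutant mitochondrial median falls to 1.27% there.

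The size of cluster 8 in the 2 libraries rests on the denominator. Its share was 3.74% among heterozygous and 5.78% among mutant cells, a ratio of 1.54 (1.20 to 1.98). Among cells outside coarse cluster 1 the ratio was 0.654 (0.512 to 0.839), and outside coarse clusters 1 and 4 it was 0.343 (0.270 to 0.437), so that the difference was called in the opposite direction. It was 0.826 (0.581 to 1.18) among cells of the middle UMI range of cluster 8 given above. Fine cluster 12 made up 11.3% (7.21% to 16.6%) of cluster 8 in the heterozygous and 10.9% (7.59% to 14.9%) in the mutant library. With the common maximum of 29462 UMIs its heterozygous share was 6.63% (3.47% to 11.3%).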

How the data were processed

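Per the submitters' processing notes, STARsolo, Scanpy and the genome build danRer11 were used; versions, annotation, cell filters, cluster settings, doublet treatment and the velocity tool are not given in the sources used. The 2 deposited tables hold 1 row per cell. Per the file headers, genes per cell were deposited as counts and total UMIs as the natural log of 1 plus the sum. Mitochondrial values were deposited as percent. Velocity values are scores deposited by the authors. Spliced and unspliced sizes, whole numbers, were read as UMIs. In the median cell of cluster 8 they summed to 105% of the deposited total.

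Exponentiating and rounding gave back the UMIs (within 0.0374 of a whole number in cluster 8). The libraries held 115131011 heterozygous and 84294688 mutant UMIs in all, of which 3181137 and 4919188 were in cluster 8. Its cells had at least 5267 UMIs and 1567 genes. All 499 cells matched the other table in cluster, genes, UMIs and mitochondrial percent. The libraries shared 5 barcodes, none in cluster 8.

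Medians have exact order-statistic intervals, shares exact (Clopper-Pearson) ones, both at 95%. Bounds of a difference or ratio come from opposite ends of the 2 intervals. The upper limit of a share of 0 is 3 counts. The intervals of single medians and shares were tested on simulated independent cells. Tied scores and the bounds of differences and ratios were not simulated. No p-value was computed. The named items were fine clusters 5 and 12 in each library, with the clusters nearest in pseudotime or holding other end point cells for comparison. Members, measures and alternatives were chosen with earlier results of these data known. The tables hold no expression, so no gene list or marker was used. Software was Python 3.11.15, numpy 2.4.6, pandas 2.3.3, scipy 1.17.1 and matplotlib 3.10.9.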

Additional observations from a re-analysis of the deposited data

Results flagged for a closer look

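The mutant minus heterozygous difference had opposite signs in the 2 fine clusters for 3 measures, and this difference between the clusters was not tested. Self-transition differed by -0.0179 in fine cluster 5 and by 0.0541 within fine cluster 12. The ratio of mutant to heterozygous UMIs per cell was 1.01 for fine cluster 5 and 0.616 for fine cluster 12. The ratio of genes per cell was 1.02 and 0.806. The bounds of all 6 values include no difference, and the opposite signs depended on the cells taken. Self-transition of fine cluster 12 differed by -0.0351 between the UMI quartiles of cluster 8 and by -0.00742 with 1 UMI maximum for both libraries, the sign of fine cluster 5. The UMI ratio of fine cluster 12 was 1.01 between these quartiles. With the common maximum both UMI ratios were below 1, at 0.984 and 0.882. Without the deepest 5% of each library the UMI and gene ratios of fine cluster 5 were also below 1, at 0.974 and 0.995.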

How the results depend on the processing

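The alternatives gave 213 values, of which 200 lay within the bounds of the reported one, 10 moved outside them and 3 reversed a called difference. Another 14 values, in 9 of the differences that were not called, changed sign with bounds that include no difference: pseudotime and UMIs and genes per cell between genotypes in fine cluster 5, self-transition, unspliced percent and UMIs per cell between genotypes in fine cluster 12, and between the fine clusters the mitochondrial percent in both libraries and the mutant unspliced percent. Taking fine clusters 5 and 12 whatever their coarse cluster could change nothing, since none of their cells lay elsewhere. The ratio of shares of cluster 8 turned direction in cells between its UMI quartiles (0.826), outside coarse cluster 1 (0.654) and outside coarse clusters 1 and 4 (0.343). The last 2 follow from the change of denominator. The UMI range kept 99 of 195 heterozygous and 150 of 304 mutant cells of cluster 8. Of all cells it kept 1416 of 5207 heterozygous and 2598 of 5262 mutant ones, and the cause of that turn was not tested. Between the UMI quartiles, the heterozygous share of fine cluster 12 was 6.06% and its UMI ratio to fine cluster 5 was 1.08, on 6 cells, by the construction of a narrow range. The UMI maximum common to both libraries, added after seeing the data, gave a heterozygous share of 6.63%. At or below 1.64% mitochondrial UMIs, the median of cluster 8, the mitochondrial difference in fine cluster 5 was 0.126 percentage points, by the construction of the limit, and the share of high end point scores in fine cluster 12 minus that in fine cluster 5 was -37.8 percentage points in the mutant library; the cause was not tested. Of 33 differences, 13 were called; their bounds came to include no difference in 15 values, 8 between the UMI quartiles, 4 with the mitochondrial limit and 3 with the common UMI maximum. Another 3 differences came to be called: the heterozygous self-transition of fine cluster 12 against 5 with the common UMI maximum (0.163), the mutant to heterozygous UMI ratio of fine cluster 12 with the mitochondrial limit (0.54995), and the end point share of fine cluster 5 between genotypes with a threshold of 0.95 (-12.8). The lower pseudotime of fine cluster 12 in both libraries and its higher self-transition in the mutant library were called under every alternative run on the cells taken; means have no interval of their own here. Removing the deepest 5% of each library, means, other end point thresholds (0.8 and 0.95) and total UMIs as the denominator of the unspliced percent moved no value outside the reported bounds, although the 0.95 threshold changed a call (above). No paired analysis was possible because each genotype had 1 library and the labels give no replicate number, and no library could be left out. Counting error limits fine cluster 12, with 22 and 33 cells.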
